A study of Mus musculus with 6 samples.

Results

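The heat shock chaperones described here are Hsph1, Hsp90aa1, Hsp90ab1, Hspa1a, Hspa1b, Hspa8, Hspd1, Hspe1, Dnajb1 and Dnaja1. They were chosen with earlier results of these data known, while the rule that assigned probe sets to them uses no measured value. A probe set, the group of short probes that reports a transcript on the array, was taken as a member's when the platform annotation gave it that gene symbol alone. Of the 10 genes, 9 were found, with 20 probe sets, out of 12393 genes named in this way, and Hsp90ab1 had no probe set naming it alone. All 20 probe sets passed the filter that left out the dimmest 40% of probe sets, which left 8190 genes to test. The probe set of Hspa1a had a wild-type mean under the filter cutoff of 5.18 (log2), so it passed through its knockout values, and the same holds for the dimmest of 3 Hspa1b probe sets.

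RNA came from CD4+CD25+ regulatory T cells (Treg), T cells that restrain immune responses, separated magnetically from mice on the Balb/c background. The knockout group was Mbd2-/-, mice without the methylated-DNA binding protein Mbd2, and the control group was WT, with 3 arrays each from samples that the submitters call independent. The labels name neither the age and sex of the mice, nor the organ, nor the number of mice behind a sample. Both groups share the Balb/c background, and the label of the cells rests on CD4 and CD25 alone. The deposited values are log2 expression values made by RMA, so a difference of 1 is a doubling of the signal.

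Chaperones hold unfolded proteins and help them to fold. Proteins of the Hsp70 family grip short exposed stretches of a client in a cycle driven by ATP, J-domain partners such as Dnajb1 and Dnaja1 deliver clients and trigger the hydrolysis, and Hsph1, of the Hsp110 family, releases ADP so that the cycle can restart. Hsp90 proteins receive clients such as steroid receptors and the T cell kinase Lck, and Hspd1 with its lid Hspe1 folds proteins inside mitochondria. Under heat or other protein-damaging stress the transcription factor Hsf1 binds heat shock elements, which are inverted repeats of GAA, and induces many of these genes, while Hspa8 is the constitutive member that cells make at all times.

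The promoters below are shown because the members were compared as targets of the same stress response. They came from RefSeq, build GRCm38.p6, where 7 of the 10 genes had an entry, and hold the 250 bases before a start site. Capitals mark matches to GAANNTTC or TTCNNGAA, the 2 arrangements of a pair of inverted repeat units, each of which reads the same on both strands. The stretch between a start site of Hspd1 and that of Hspe1, genes transcribed away from each other, is chr1:55087933-55088147, plus strand. The Hspa1b promoter is chr17:34959239-34959488, minus strand, the Hspa1a promoter is chr17:34972157-34972406, minus strand, and the Hsph1 promoter is chr5:149636316-149636565, minus strand.
Hspd1-Hspe1: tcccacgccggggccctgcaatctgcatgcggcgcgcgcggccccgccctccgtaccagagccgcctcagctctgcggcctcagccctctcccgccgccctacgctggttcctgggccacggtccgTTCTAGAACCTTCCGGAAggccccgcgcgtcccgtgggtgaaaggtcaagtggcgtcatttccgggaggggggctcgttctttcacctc
Hspa1b: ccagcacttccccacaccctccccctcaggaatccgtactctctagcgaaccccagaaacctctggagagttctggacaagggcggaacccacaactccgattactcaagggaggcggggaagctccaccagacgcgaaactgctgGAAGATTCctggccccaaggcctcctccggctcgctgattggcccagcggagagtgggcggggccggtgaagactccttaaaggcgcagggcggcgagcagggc
Hspa1a: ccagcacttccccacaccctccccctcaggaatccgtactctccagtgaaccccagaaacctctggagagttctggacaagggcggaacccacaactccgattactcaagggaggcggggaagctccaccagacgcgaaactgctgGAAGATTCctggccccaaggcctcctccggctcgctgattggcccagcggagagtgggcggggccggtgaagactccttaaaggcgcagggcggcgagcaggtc
Hsph1: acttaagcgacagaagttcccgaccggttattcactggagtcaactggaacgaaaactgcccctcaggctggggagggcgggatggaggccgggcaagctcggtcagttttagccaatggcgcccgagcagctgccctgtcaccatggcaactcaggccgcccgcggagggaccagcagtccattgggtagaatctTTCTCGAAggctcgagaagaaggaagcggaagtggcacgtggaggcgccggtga
The stretch between Hspd1 and Hspe1 held overlapping matches in 1 block of 18 bases, which lay 72 to 89 bases before the start site of Hspe1. It also matched the longer motif GAANNTTCNNGAA or its reverse TTCNNGAANNTTC, found in 0.466% of all 32817 promoter windows of 250 bases. In Hspa1a and Hspa1b the match was GAAGATTC, 97 to 104 bases before the start site, and the 2 promoters were the same at 247 of 250 bases. Of the members' 12 windows, 7 held a match to either short motif, among them a window of Dnaja1 and none of Dnajb1, against 12.8% of all windows. Several of the 12 overlap, so the 7 count some matches repeatedly. A window of Hspd1 and that of Hspe1 hold the same block, and 2 windows of Hsph1 hold the same match. These matches describe letters and not binding, which the arrays did not measure.

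Wild-type replicate 3 stood apart before any chaperone was examined, with correlations of 0.753 to 0.769 to the other arrays over all probe sets, against 0.956 to 0.997 among the other 5. Its bright genes were low, and among 790 genes with a mean log2 of at least 9 it lay at a median of -1.21 relative to the mean of wild-type replicates 1 and 2. The 7 chaperone genes above that level had a median of -1.52 on the same measure. Results are therefore given with all 6 arrays and without wild-type replicate 3. The targeted transcript fitted the labels, since the brighter Mbd2 probe set was at 5.93, 5.71 and 6.14 in knockout, against 8.80, 8.66 and 6.93 in wild type, and the dimmer one did not overlap either. Of 11 measured T cell and Treg markers, 10 were above the cutoff on all 6 arrays, including Foxp3 and Cd3e.

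Every measured chaperone gene had a higher mean in knockout cells, with Hsph1 first in the fit of 6 arrays and Hspa1b first in that of 5, but none passed the test over all genes with 6 arrays or without wild-type replicate 3. A gene was represented by its brightest probe set, and the test was limma with Benjamini-Hochberg adjustment over 13575 probe sets at a threshold of 0.05. Over the 9 genes the median log2 difference was 1.10 in the fit of 6 arrays, against 0.16 over all 8190 genes. Leaving out wild-type replicate 3 gave 0.60, against -0.06. The genes compared were not matched for brightness. Of the 9 members, 7 had a mean log2 of at least 9, a level at which genes were mostly low in wild-type replicate 3. A positive difference was found for 9 of 9 in both, or 8 of 8 without Hspa1a, beside 64.3% of all genes in the fit of 6 arrays and 40.1% in that of 5. The count past the threshold was 0 of 9 in both, where 0.122% and 0.818% of all genes passed as higher. At an unadjusted limma p under 0.05, 4 of 9 were higher with 6 arrays (3.91% of all genes) and 6 of 9 in the fit of 5 arrays (7.69% of all genes). At an adjusted p under 0.1 the fit of 5 arrays gave 3 of 9, namely Hsph1, Hsp90aa1 and Hspd1, beside 2.69% of all genes. In 8 of the 9 genes every knockout array lay above every wild-type array, with or without that array, as did 10.8% of all genes with 6 arrays and 16.8% without it. The exception was Dnajb1, and without Hspa1a the count was 7 of 8.

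**Figure D1:**
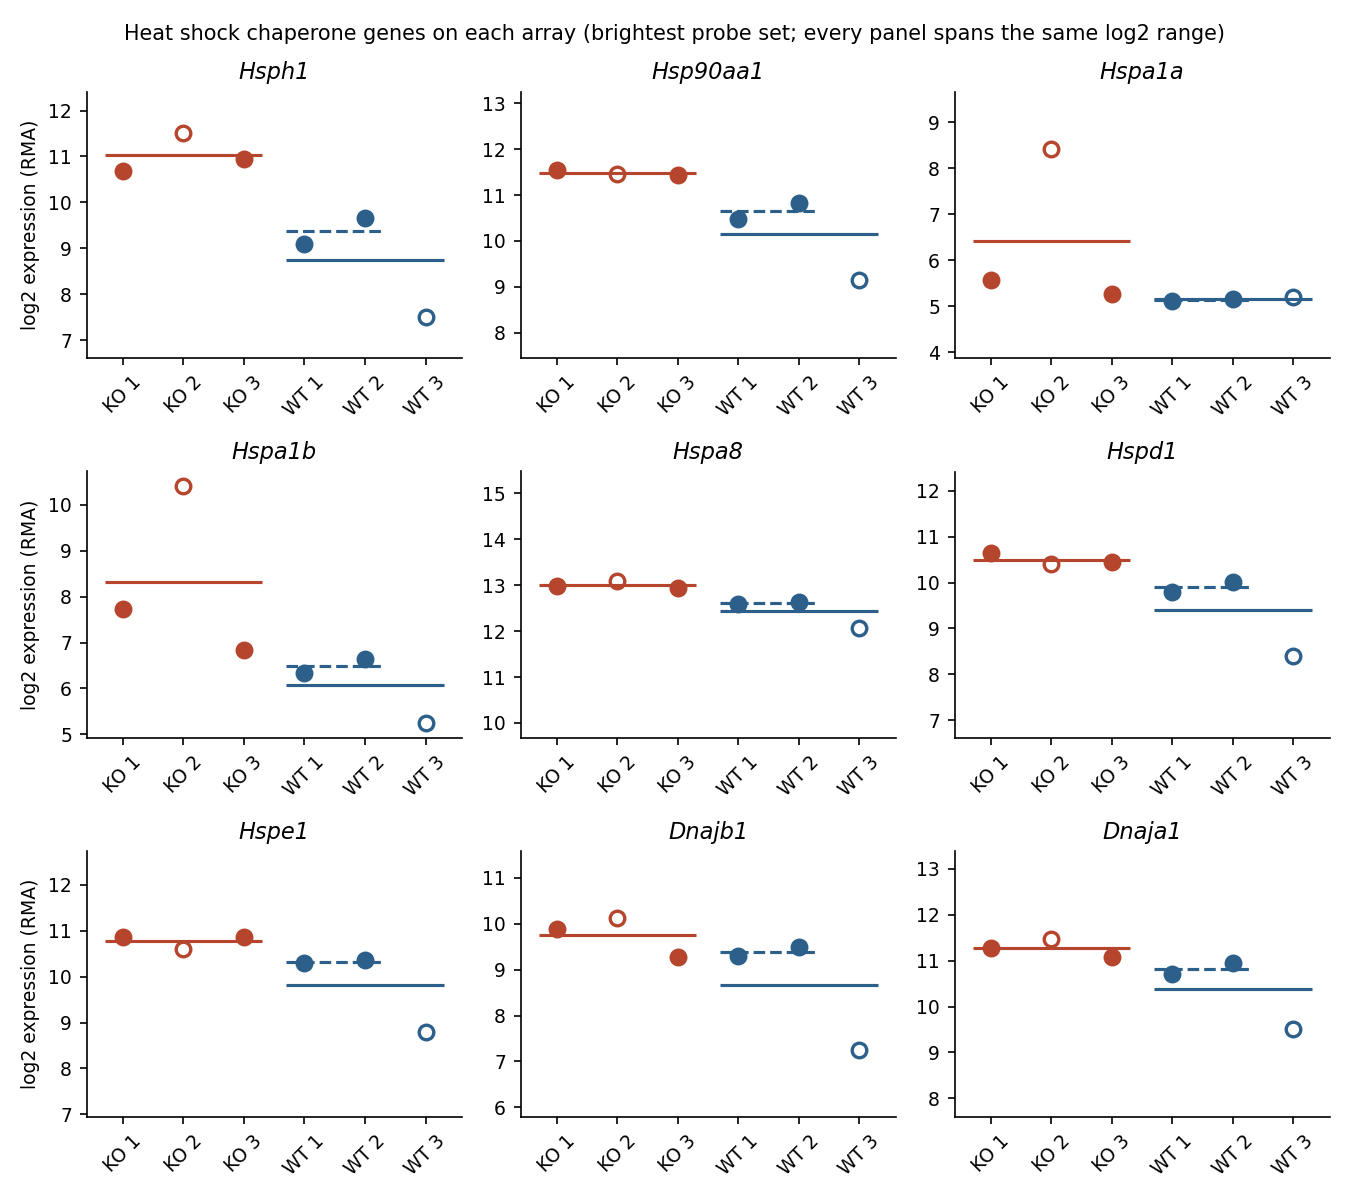
Log2 expression of the 9 measured chaperone genes on each array, by the brightest probe set of each gene, with knockout (KO) in red and wild type (WT) in blue. Solid lines are means of 3 arrays, the dashed line is the mean of wild-type replicates 1 and 2, and open circles are knockout replicate 2 and wild-type replicate 3; wild-type replicate 3 is the lowest array for 8 of the 9 genes, and knockout replicate 2 stands far above all others for Hspa1a and Hspa1b.

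Hsph1, the Hsp110 exchange factor, had the largest difference of the members with 6 arrays. Its brighter probe set was at 10.68, 11.51 and 10.93 in knockout replicates 1, 2 and 3, and at 9.10, 9.67 and 7.50 in wild-type replicates 1, 2 and 3. The groups did not overlap, and the lowest knockout array lay above the highest wild-type array by more than the whole spread of the knockout arrays. This came to a 4.87-fold higher level in knockout cells (log2 difference 2.28, SE 0.58, limma adjusted p = 0.615). Leaving out wild-type replicate 3 gave 3.15-fold (log2 difference 1.66, SE 0.28, limma adjusted p = 0.0572). The dimmer probe set gave 8.97, 9.78 and 9.12 in knockout, against 7.40, 8.08 and 5.92 in wild type, a log2 difference of 1.55 without wild-type replicate 3 (limma adjusted p = 0.0697). Both probe sets thus had the same order of arrays. Among all 8190 genes Hsph1 ranked 51 by its log2 difference with 6 arrays and 108 without wild-type replicate 3. In bulk RNA, more cells of a type that makes a transcript and more of it per cell cannot be told apart.

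By the brightest probe set of each gene, Hsp90aa1, the stress-inducible cytosolic Hsp90, was the most even of the members across the knockout arrays. It was at 11.55, 11.46 and 11.44 in knockout replicates 1, 2 and 3, against 10.48, 10.84 and 9.14 in wild-type replicates 1, 2 and 3. The knockout SD was 0.06, and no knockout array reached down to a wild-type value. The fit of 6 arrays gave a log2 difference of 1.33 (SE 0.45, limma adjusted p = 0.829). The fit of 5 arrays gave 0.82 (SE 0.13, limma adjusted p = 0.0518), the smallest adjusted p of any member there. The other 2 probe sets of Hsp90aa1 gave 0.70 and 0.87 without wild-type replicate 3, also without overlap. They were less even, with knockout SDs of 0.15 and 0.10. Hsp90ab1, the constitutive cytosolic Hsp90, was not analysed here.

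Hspa8, the constitutive Hsp70, differed least of the members with 6 arrays. The brightest of its 4 probe sets was at 12.98, 13.09 and 12.93 in knockout, against 12.59, 12.64 and 12.06 in wild type. These are near the top of the array's range, and the groups still did not overlap. The fit of 6 arrays gave a log2 difference of 0.57 (SE 0.24, limma adjusted p = 0.829) and that of 5 arrays 0.39 (SE 0.10, limma adjusted p = 0.108). Of the other probe sets, 2 gave 0.33 and 0.50 in the fit of 5 arrays. The dimmest one ran the other way, at 7.38, 7.05 and 7.34 in knockout and 7.84, 7.63 and 7.05 in wild type, a log2 difference of -0.48 without wild-type replicate 3 (limma adjusted p = 0.137). It was the only one of the 20 chaperone probe sets with a negative difference in either fit. The suffix of the brightest probe set marks probes that can bind related sequences, so its values may include other transcripts.

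Hspa1a and Hspa1b, the strongly inducible Hsp70 pair, set knockout replicate 2 apart from the other arrays. Hspa1b was at 7.74, 10.40 and 6.84 in knockout replicates 1, 2 and 3, against 6.34, 6.64 and 5.25 in wild-type replicates 1, 2 and 3. Hspa1a was at 5.56, 8.41 and 5.25 in knockout, against 5.12, 5.16 and 5.21 in wild type. Both were thus far highest in knockout replicate 2, while knockout replicates 1 and 3 lay nearer to wild type. That array exceeded the next highest array by 2.66 for Hspa1b and by 2.85 for Hspa1a on the log2 scale. Of all 8190 genes, 0.293% had such a gap above 2, and Hspa1a and Hspa1b ranked 2 and 4. By their brightest probe sets the remaining members had gaps of 0.57 or less, and Hsp90aa1, Hspd1 and Hspe1 were not highest in this array. The other Hsp90aa1 probe sets were highest in it, with gaps of 0.26 and 0.15. The dimmer Hsph1 probe set had a gap of 0.66.

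For Hspa1b the mean was 8.33 ± 1.85 in knockout and 6.08 ± 0.73 in wild type (SD, n = 3 each), a log2 difference of 2.25 (SE 0.93, limma adjusted p = 0.829). The 95% interval of this difference, 0.02 to 4.49, was the widest of the 9 genes. For Hspa1a the log2 difference was 1.25 (SE 0.82, limma adjusted p = 0.829), at least 2.32-fold, a lower bound in which wild-type values under the cutoff were raised to it. The dimmest of the 3 Hspa1b probe sets overlapped between groups, with 5.42 in knockout replicate 3 and 5.51 in wild-type replicate 2. Hspa1a and Hspa1b are near-identical copies, so probes of one gene may bind RNA of the other, and their values are not separate measurements.

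Hspd1 and Hspe1, the mitochondrial chaperonin and its lid, which share the promoter stretch printed above, had the same order of groups and close differences. Hspd1 was at 10.64, 10.41 and 10.45 in knockout, against 9.80, 10.01 and 8.39 in wild type. Hspe1 was at 10.87, 10.60 and 10.87 in knockout, against 10.30, 10.36 and 8.80 in wild type. Neither gene overlapped between the groups. Without wild-type replicate 3 the log2 difference was 0.60 for Hspd1 (SE 0.12, limma adjusted p = 0.0745) and 0.45 for Hspe1 (SE 0.12, limma adjusted p = 0.122). The fit of 6 arrays gave 1.10 for Hspd1 and 0.96 for Hspe1, both at a limma adjusted p = 0.829. The second Hspe1 probe set was not low in wild-type replicate 3, with 10.13, 9.80 and 10.14 in knockout against 9.37, 9.38 and 9.26 in wild type. Its wild-type SD was 0.07, and its log2 difference hardly moved between the fits, at 0.68 for 6 arrays and 0.64 for 5.

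Of the J-domain partners, Dnaja1 separated the groups and Dnajb1 did not. Dnaja1 was at 11.28, 11.46 and 11.07 in knockout, against 10.71, 10.94 and 9.51 in wild type, which did not overlap. Its log2 difference was 0.88 in the fit of 6 arrays (SE 0.41, limma adjusted p = 0.829) and 0.44 in that of 5 (SE 0.15, limma adjusted p = 0.173). Dnajb1, which is itself strongly heat-inducible, was at 9.88, 10.12 and 9.28 in knockout and at 9.30, 9.48 and 7.24 in wild type. Knockout replicate 3 lay below both wild-type replicates 1 and 2, so the groups overlapped. Its log2 difference was 1.09 in the fit of 6 arrays (SE 0.63, limma adjusted p = 0.829) and 0.37 in that of 5, with a 95% interval of -0.24 to 0.98 (limma adjusted p = 0.423). The dimmer Dnaja1 and Dnajb1 probe sets overlapped as well.

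**Figure D2:**
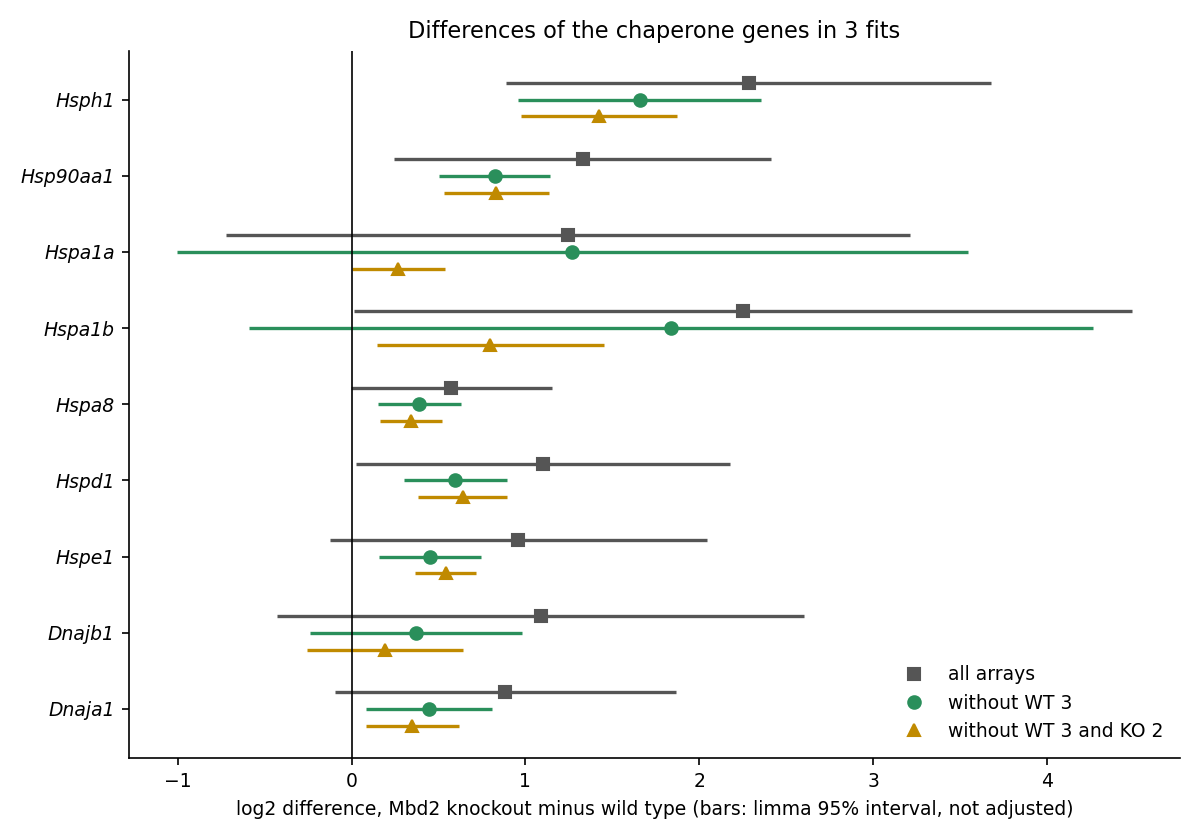
Log2 difference (knockout minus wild type) of each chaperone gene in fits of all 6 arrays, without wild-type replicate 3, and without wild-type replicate 3 and knockout replicate 2, with limma 95% intervals that are not adjusted for many genes. All 27 points lie above 0, every interval is shortest in the fit without both arrays, and Hspa1a and Hspa1b move most between the last 2 fits.

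Knockout replicate 2 was highest for 6 of the 9 genes, beside 16.6% of all genes. A fit without it and without wild-type replicate 3 was made as an alternative, chosen with the height of that array known. In that limma fit 5 of the 9 genes passed the threshold as higher, beside 9.07% of all genes (20.1% in either direction). By the brightest probe sets a positive difference was found for 9 of 9, or 8 of 8 without Hspa1a, beside 43.8% of all genes. The dimmer Dnajb1 probe set was at -0.06 in this fit. Hsph1 was 2.68-fold higher (log2 difference 1.42, SE 0.19, adjusted p = 0.00499) and Hsp90aa1 1.78-fold (0.83, SE 0.13, adjusted p = 0.00782). Hspd1 was at 0.64 (adjusted p = 0.0108), Hspe1 at 0.54 (adjusted p = 0.00572) and Hspa8 at 0.34 (adjusted p = 0.0242). The dimmest Hspa8 probe set ran the other way and passed as lower, at -0.38 (limma adjusted p = 0.0344). The fit compares 2 knockout with 2 wild-type arrays, and leaving out the array that was high for most members narrows their knockout spread. Hspa1b was at 0.80 (adjusted p = 0.0889), against 1.84 when knockout replicate 2 was kept. Hspa1a, with wild-type values under the cutoff, was at least 1.17-fold higher (adjusted p = 0.141), against at least 2.34-fold when that array was kept. Dnaja1 was at 0.35 and Dnajb1 at 0.19, neither past the threshold. The median of the 9 genes was 0.54, against -0.03 over all genes.

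**Figure D3:**
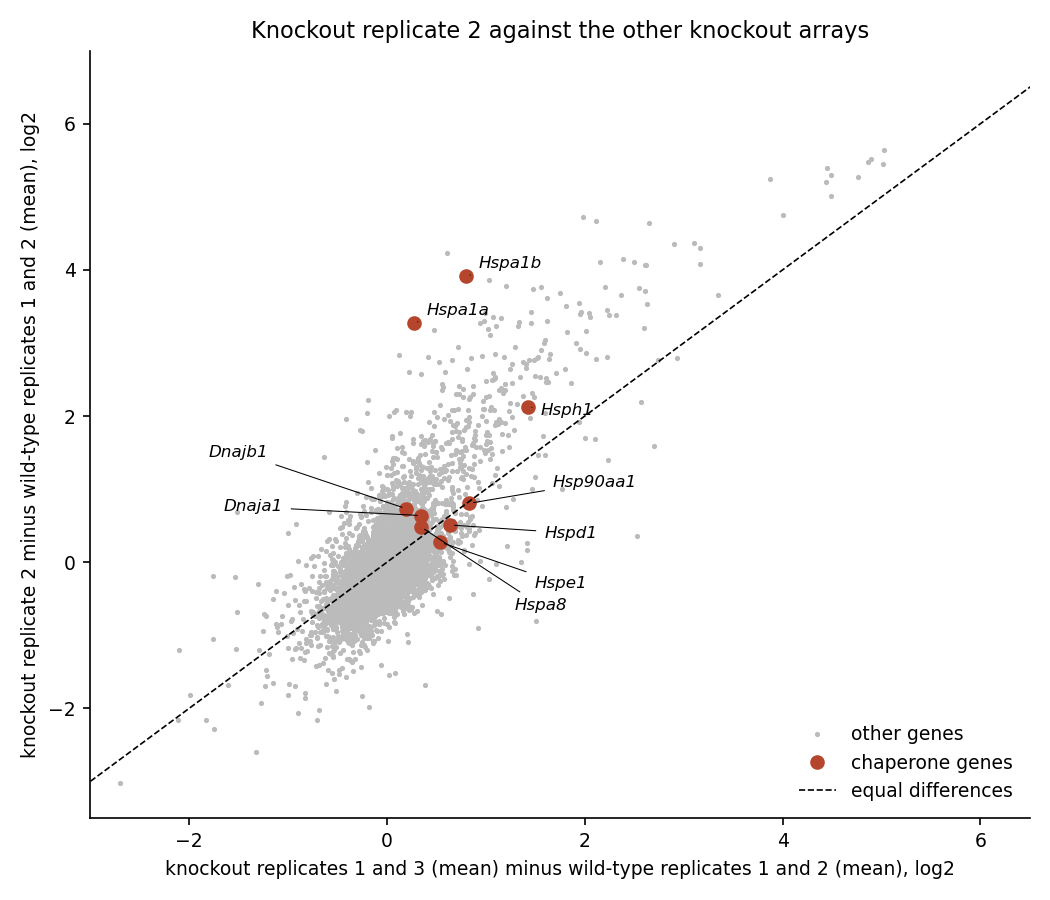
Log2 difference of knockout replicate 2 from the mean of wild-type replicates 1 and 2 (vertical axis) against that of the mean of knockout replicates 1 and 3 (horizontal axis), for 8190 genes, with chaperone genes in red and the dashed line at equal differences. Hspa1b (3.91 against 0.80) and Hspa1a (3.27 against 0.27) lie far above the line, while Hsp90aa1 (0.81 against 0.83), Hspd1 and Hspe1 lie on or below it.

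Other genes of the folding machinery were taken from lists written from general knowledge with earlier results of these data known. Some of these lists share genes. Of 14 measured Hsp90 co-chaperones, 1 passed as higher and 0 as lower without wild-type replicate 3 (1.58% of all genes passed in either direction). In that fit 9 of 14 were higher, beside 40.1% of all genes, with a median log2 difference of 0.03. The gene that passed was Cacybp, which binds a ubiquitin ligase and Hsp90, at 9.71, 9.75 and 9.68 in knockout against 9.09, 9.14 and 7.71 in wild type (log2 difference 0.60, limma adjusted p = 0.0452). In the fit of 6 arrays Cacybp did not pass (1.07, limma adjusted p = 0.829). In the list of other heat-inducible genes, which also holds Cacybp, 16 of 16 tested were higher without wild-type replicate 3, beside 40.1% of all genes, with a median of 0.44, and 1 passed. Stip1, the co-chaperone that joins Hsp70 to Hsp90, was at 0.69 (limma adjusted p = 0.0529), and Ahsa1, which activates the ATPase of Hsp90, at 0.71 (limma adjusted p = 0.053), both without overlap. With 6 arrays 14 of the 16 other heat-inducible genes were higher, beside 64.3% of all genes. Leaving out both wild-type replicate 3 and knockout replicate 2 gave 13 of 16, beside 43.8% of all genes.

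The other chaperone lists differed in their medians. Of 28 tested J-domain genes other than the members, 10 were higher and 0 passed without wild-type replicate 3, with a median of -0.07. Among these Dnaja2, a close relative of Dnaja1, was at -0.34 (limma adjusted p = 0.209) and Dnajc10 at -0.27 (limma adjusted p = 0.213). The cytosolic chaperonin TRiC and prefoldin, which fold actin and tubulin, had a median of 0.14 over 13 genes, with Cct7 at 0.37 and Cct6a at 0.45, and 0 passed. With 6 arrays 13 of these 13 were higher with a median of 0.66, and in the fit of 2 against 2 arrays the median was 0.27 and 6 passed as higher. Mitochondrial chaperones and proteases other than Hspd1 and Hspe1 had a median of -0.11 over 11 genes and 0 passed, among them Yme1l1 at -0.22 and Spg7 at -0.27. The remaining Hsp70 and Hsp110 relatives had a median of 0.28 over 6 genes, with Hspa4l, an Hsp110 relative of Hsph1, at 0.54 (limma adjusted p = 0.0585) and Hyou1, its counterpart in the endoplasmic reticulum, at 0.71 (limma adjusted p = 0.219). Of the exchange factors and partners of Hsp70, 5 of 10 were higher with a median of 0.02, and St13 was at 0.46 (limma adjusted p = 0.0767) and Bag3 at 0.68 (limma adjusted p = 0.212). Only 3 small heat shock proteins were tested, of which Hspb7 was under the cutoff on all arrays but wild-type replicate 3, where it was at 7.48. Hspb1 differed by 0.24 and was at 7.72 in knockout replicate 2 against 6.47 and 6.39 in the other knockout arrays. Of the heat shock factors and regulators only Sirt1 and Hsbp1 were tested, at -0.40 and -0.11, and Hsf2 lay under the cutoff on all 6 arrays. In the fit of 6 arrays none of these lists had a gene past the threshold. In the fit without wild-type replicate 3 and knockout replicate 2, 9.07% of all genes passed as higher. The count there was 5 of 14 for Hsp90 co-chaperones, of which 1 passed as lower, and 8 of 16 for the other heat-inducible genes. It was 7 of 14 for endoplasmic reticulum chaperones and 0 of 28 for J-domain genes.

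Endoplasmic reticulum chaperones, which fold secreted proteins, were a further list, and all 14 were highest in knockout replicate 2, beside 16.6% of all genes. This list shares Hspa5 and Hyou1 with the Hsp70 and Hsp110 relatives, and Dnajb9, Dnajb11 and Dnajc3 with the J-domain genes. Their mean level was 9.43, 10.37 and 9.39 in knockout replicates 1, 2 and 3, against 8.92, 9.13 and 7.46 in wild-type replicates 1, 2 and 3. Without wild-type replicate 3 the median difference was 0.64 with 0 of 14 past the threshold, and Sdf2l1 was at 1.42 (limma adjusted p = 0.136) and Pdia6 at 0.78 (limma adjusted p = 0.154). Immediate early genes, which respond to stimulation within minutes of a signal, were highest in that array for 10 of 15, with a median difference of 0.05 and 0 past the threshold. Ier3 was at 1.56 (limma adjusted p = 0.115) and Btg2 at -0.87 (limma adjusted p = 0.082).

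Markers of some other cell types differed between the groups in the direction of the chaperone genes. All 13 granulocyte markers were above wild type on every knockout array, with a mean level of 9.21 to 9.57 in knockout and 5.46 to 6.20 in wild type. Without wild-type replicate 3, 9 of the 13 passed the threshold, among them Ngp, S100a9, Camp and Ltf at log2 differences of 5.07 to 5.23. For 11 myeloid and dendritic cell markers the range was 7.02 to 8.30 in knockout and 5.23 to 5.70 in wild type, and 11 of 11 were highest in knockout replicate 2, and Itgam was under the cutoff on every wild-type array. Lyz2 passed at 4.76 and Csf1r at 3.09 without wild-type replicate 3. The 6 plasma cell markers had mean levels of 8.61, 10.16 and 8.65 in knockout against 7.87, 8.27 and 6.97 in wild type, and 6 of 6 were highest in knockout replicate 2. None of the 6 passed, with Jchain at 1.11 and Irf4 at 0.59 without wild-type replicate 3. For 10 B cell markers the range was 6.72 to 7.13 in knockout and 5.59 to 6.19 in wild type, with Cr2 under the cutoff on all arrays and Spib past the threshold at 1.55 without wild-type replicate 3. The 9 CD8 T cell and NK cell markers spanned 6.81 to 7.82 in knockout and 6.05 to 6.72 in wild type, with 7 of 9 highest in knockout replicate 2 and Klrk1 under the cutoff on every wild-type array, and Eomes passed at 1.17 without wild-type replicate 3. The 7 erythroid and platelet markers spanned 4.93 to 5.08 in knockout and 4.82 to 6.14 in wild type, with Ppbp and Pf4 under the cutoff on all arrays, Itga2b at 0.31 without wild-type replicate 3, and Hba-a1 above the cutoff in wild-type replicate 3 alone. The 11 T cell and Treg markers ran the other way, at 8.85, 8.08 and 8.92 in knockout against 9.40, 9.45 and 8.25 in wild type, with none above wild type on every knockout array. Of the 10 tested, 0 were higher without wild-type replicate 3, with a median of -0.76 and 0 past the threshold, and 8 passed as lower without knockout replicate 2 as well. Foxp3 was at 7.98, 6.62 and 8.17 in knockout, against 8.83, 8.74 and 6.93 in wild type. Without wild-type replicate 3, Ctla4 was at -1.19 (limma adjusted p = 0.103) and Tnfrsf18 at -0.93 (limma adjusted p = 0.114). As a sign of RNA quality, the log2 excess of the 3' over the 5' control probe set of Gapdh was 0.10, 0.17 and 0.08 in knockout replicates 1, 2 and 3, against 0.07, -0.01 and 0.23 in wild-type replicates 1, 2 and 3. For Actb it was 0.59, 0.66 and 0.66 in knockout, against 0.59, 0.46 and 0.64 in wild type, in the same order. The part of these cell types, or of RNA quality, in the chaperone values was not tested.

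**Figure D4:**
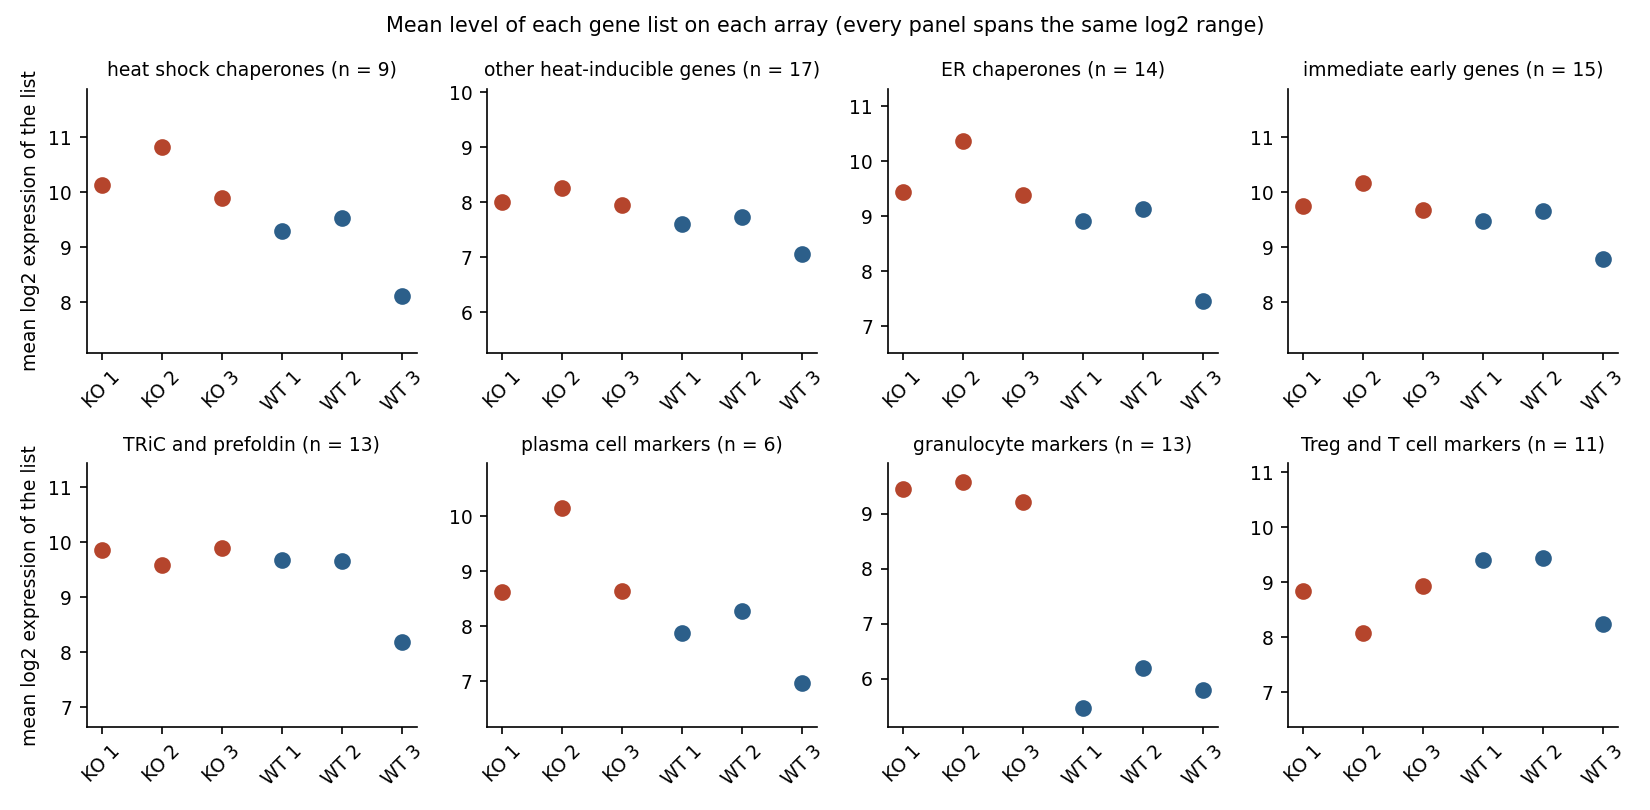
Mean log2 expression of 8 gene lists on each array, with knockout (KO) in red and wild type (WT) in blue, and n the number of measured genes of the list. The heat shock chaperone, other heat-inducible, endoplasmic reticulum (ER) chaperone, immediate early, plasma cell and granulocyte lists are highest in knockout replicate 2. The granulocyte list is high in all 3 knockout arrays, and wild-type replicate 3 is the lowest array of 6 of the 8 lists.

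Genes whose pattern over the arrays was most like the chaperone mean were found by the root mean square distance between centred log2 profiles. With 6 arrays they were Pglyrp1, a peptidoglycan-binding protein of neutrophil granules (distance 0.06), Plin2, a coat protein of lipid droplets (0.09), Lrrc59 (0.12), Pafah1b3 (0.13) and Myadm (0.14). Without wild-type replicate 3 they were Car2, a carbonic anhydrase, Clic4, Vcl, the adhesion protein vinculin, Apobr and again Pglyrp1, at 0.05 to 0.07. The 9 chaperone genes themselves lay at 0.27 to 0.92 from their own mean with 6 arrays, with Dnaja1 nearest and Hspa1b farthest.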

How the data were processed

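Log2 expression values per probe set on 6 arrays were used as deposited. Per the submitters' processing notes they came from RMA, which corrects background, normalizes by quantiles and summarises probes, and which can compress the differences of dim probe sets. Neither the RMA version nor the set of arrays it ran on is stated. Per the labels' protocols, total RNA was amplified and labelled with biotin.

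Groups came from the sample titles. Of 22690 probe sets, 64 controls were left out. Symbols came from the platform annotation, updated by gene ID through RefSeq (assembly GRCm38.p6): 20380 probe sets had 1 symbol, 691 several and 1555 none listed, and only the first kind was named. Of 224 list symbols, 199 had a probe set. Probe sets were ranked by mean, the dimmest 40% (log2 of 5.18 or less) were dropped, and the other 13575 entered linear models by group in limma (version 3.58.1, R version 4.3.3, Benjamini-Hochberg, threshold 0.05). Models were made of 6 arrays and of 5, leaving out wild-type replicate 3. Adjusted p-values are over all probe sets tested, and a gene was represented by its brightest probe set. Values came without detection calls, and a fold against a mean under the cutoff is a lower bound. The number of arrays limits the precision, and the p-values measure the spread between these samples. The fit was tested on simulated data.

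The members and lists were chosen with earlier results of these data known. Named were all members, Mbd2 and Foxp3, and, from each list, genes past the threshold in either fit (at most 4) or else the 2 with the smallest p without wild-type replicate 3; Stip1, Ahsa1, Klrk1, Cr2, Ppbp, Pf4, Itgam, Hsf2, Cd3e and the genes of the metallothionein remark were named after their values were seen. The arrays were treated as unpaired, and the replicate numbers showed no sign of pairing, which the check made cannot exclude. Alternatives were other filters, normalizations, weights, variance models, a replicate block, the mean of probe sets and arrays left out. Figures were drawn with matplotlib 3.10.9.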

Additional observations from a re-analysis of the deposited data

How the results depend on the processing

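The chaperone result depends on which arrays are weighed most. No difference of the 9 genes changed sign where an alternative gave a value, and 238 of 268 single values kept their side of the threshold, while 30 passed it that had not before. With 6 arrays the count past the threshold was 0 with every single array left out, 5 with array quality weights (17.3% of all genes passed) and 5 with wild-type replicate 3 and knockout replicate 2 both left out (20.1% of all genes). The weight of wild-type replicate 3 was 0.0289 and that of knockout replicate 1 was 8.24, so the weighted fit gave wild-type replicate 3 almost no part. Without wild-type replicate 3 the count was 3 at an adjusted p under 0.1 (Hsph1, Hsp90aa1 and Hspd1), 1 with median centring (1.88% of all genes) and 1 with a trended robust variance (1.76% of all genes), Hsp90aa1 in both, and 7 with array quality weights (29.6% of all genes). It ranged from 0 to 5 with a further array left out, the 5 coming without knockout replicate 2. The median difference of the 9 genes ranged from 0.60 to 1.40 with 6 arrays and from 0.50 to 0.70 without wild-type replicate 3 as single arrays were left out. With 6 arrays it was 0.77 after quantile normalization again and 0.51 with array quality weights.

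With the replicate number as a block the count was 0 of 9 in the fit of 6 arrays (0.0855% of all genes) and 3 in that of 5 arrays (Hsph1, Hsp90aa1 and Hspa1b, beside 4.60% of all genes). In the second of these fits knockout replicate 3 has no partner and does not enter the difference. The numbers showed no sign of pairing: same-numbered arrays correlated at 0.15, -0.09 and -0.14 in their deviations from the group means, and 1 of 6 arrays correlated best with its own number. With 3 arrays per group and wild-type replicate 3 far apart, this check cannot exclude pairing. Hspa1a was under the filter on the dimmest 60% and has no value there. The cause of each change was not tested.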

Other observations

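Among the 12 genes that stood highest above all other arrays in knockout replicate 2, Hspa1a and Hspa1b lay beside the metallothionein genes Mt1 and Mt2, which encode metal-binding proteins induced by metals and stress. Mt1 was at 6.91, 10.40 and 6.64 in knockout replicates 1, 2 and 3, against at most 7.21 in wild type. Mt2 was at 6.01, 8.61 and 5.76 in knockout, against 5.66, 5.88 and 5.50 in wild type. Herpud1, a component of endoplasmic reticulum-associated protein degradation, was at 10.23, 12.64 and 10.39 in knockout, against 9.34, 9.33 and 8.14 in wild type. The other genes of this group included Ighg3 and 3 immunoglobulin kappa variable genes, with Ighg3 at 9.57, 12.47 and 9.88 in knockout and 7.56, 7.93 and 6.73 in wild type, and Il1b, the gene of an inflammatory cytokine. These genes were picked for their height in a single array, so the values describe that array and not the knockout.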
